A study of Mus musculus with 2 samples.

Results

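The cytosolic ribosomal protein genes were followed across thymic cells of the regulatory T (Treg) lineage. Members were the genes named as large (Rpl) or small (Rps) subunit proteins, with Rpsa, Rplp0, Rplp1 and Rplp2 added and the S6 kinases left out, that had at least 1000 unique molecular identifiers (UMIs, 1 per captured transcript) over all barcodes. Of 32285 genes, 83 matched by name and 80 passed that minimum, 48 of the large and 32 of the small subunit. The minimum decided little, because the nearest member inside it, Rpl7l1, had 2575 UMIs, and the 3 symbols outside it, Rpl39l, Rpl10l and Rpl3l, had 48, 1 and 0.

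Cells came from 2 C57BL/6 mice, both with the Foxp3eGFP allele, in which eGFP reports Foxp3, the defining transcription factor of Treg cells. The first carried no other change named in the labels and is called Foxp3eGFP here, and the other lacked Lta, which encodes lymphotoxin alpha, and is called Lta-/-. CD4+CD8-CCR6-CD3e+ thymocytes bearing CD25 (the IL-2 receptor alpha chain, from Il2ra), eGFP or both were sorted, tagged with an antibody barcode per mouse and captured in 1 well for 3' sequencing. Ages were not stated in the labels. After filtering, 4638 cells remained. Of these, 2209 were Foxp3eGFP (15010916 UMIs, median 5547 per cell), 2244 were Lta-/- (14054827 UMIs, median 5395) and 185 were assigned to neither mouse. The 185, called cells with both tags here, had median counts of 5134 for the larger and 3398 for the smaller tag. Lta itself had 509 UMIs in Foxp3eGFP and 72 in Lta-/- cells, a log2 ratio of −2.73 (−3.10 to −2.37). T cell transcripts were general, with Trbc2 found in 98.6% of cells, Cd3e in 95.2% and Cd4 in 60.1%. With 1 mouse per genotype and 1 capture there is no replicate error, no test was made, and every interval is an exact 95% interval that covers counting error only.

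Each ribosome joins a small subunit, which reads the mRNA, to a large subunit, which makes the peptide bond, and nearly every ribosomal protein is present in a single copy per ribosome. Their mRNAs are among the most abundant of any cell, and most start with a C followed by a run of pyrimidines, the 5' terminal oligopyrimidine (TOP) tract, through which mTOR and Larp1 set their translation. In T cells, antigen receptor signals raise ribosome production along with growth, and Rpl22 is known to be needed for normal development of alpha-beta T cells in the thymus.

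The start regions show which members carry a TOP-like run at their annotated start. Of the 80 members, 60 matched the RefSeq promoter table (GRCm38.p6) by symbol. A run was a C followed by at least 4 bases that were each C or T, on the transcribed strand, beginning from 5 bases before to 6 bases into the annotated transcript, and a gene with several starts was counted once if any start held it. It was found in 29 of 60 members (48.3%), against 5718 of 27025 genes of the table (21.2%) and 834 of 3436 genes with at least 1000 UMIs (24.3%). Among other gene groups it was found in 8 of 17 elongation factor and other TOP genes (47.1%), 15 of 62 mitochondrial ribosomal proteins (24.2%) and 4 of 20 ribosome assembly genes. The motif TATAAA, read on the transcribed strand only, lay in the 250 bases before the start of 2 of 60 members (3.33%), of 8.94% of all genes and of 4.66% of genes with at least 1000 UMIs. The stretches below are the 10 bases before and the first 20 bases of the transcript, 5′ to 3′, with the run in capitals. They are given for the most abundant member (Rps24), the member closest to the rest (Rpl27a) and other members described below. These were picked, and most of them hold a run, so they do not stand for all members (29 of 60).
Rps24: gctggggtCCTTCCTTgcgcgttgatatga
Rps15a: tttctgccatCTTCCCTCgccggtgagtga
Rps27: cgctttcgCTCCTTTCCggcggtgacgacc
Rpl27a: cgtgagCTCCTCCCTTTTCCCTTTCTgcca
Rps2: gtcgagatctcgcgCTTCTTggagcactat
Rpl14: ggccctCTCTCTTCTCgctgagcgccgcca
Rps27l: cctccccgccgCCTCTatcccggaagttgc
Rpl7l1: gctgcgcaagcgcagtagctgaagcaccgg
They lie at chr14:24490668-24490697 (+), chr7:118116128-118116157 (−), chr3:90213629-90213658 (−), chr7:109519185-109519214 (+), chr17:24720053-24720082 (+), chr9:120571507-120571536 (+), chr9:66946076-66946105 (+) and chr17:46782637-46782666 (−), in the order printed. The run was 20 bases in Rpl27a, 5 in Rps27l and not found in Rpl7l1. An annotated start can miss the true one by some bases, so a member without a match may still begin with such a tract.

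Members made up 29.6% of all UMIs (9226350 of 31129765), and 42 of the 50 genes with most UMIs were members. The share per cell had a median of 29.6%, with 25.2% and 33.9% as quartiles and 18.8% and 40.2% as the 5th and 95th percentiles. Large subunit genes supplied 54.2% of the member UMIs. UMIs per 1000000 (CPM) over all cells had a median of 3774 per member and ran from 82.5 for Rpl7l1 to 8282 for Rps24. Also among the 10 members with most UMIs were Rps15a (7387 CPM), Rps20 (6829), Rpl13 (6714), Rplp1 (6121), Rps29 (5877), Rpl23 (5631), Rpsa (5322) and Rpl32 (5309), and the 10 held 21.5% of member UMIs. Rplp0, Rplp1 and Rplp2 build the stalk that recruits elongation factors, at 5219, 6121 and 3451 CPM, and Rps6, the substrate that gives S6 kinases their name, stood at 1956. The 3' method counts a transcript once whatever its length, so these levels were not scaled by length. In all, 78 members were found in over 90% of cells, and the exceptions were the paralogs Rpl7l1 (36.0%) and Rps27l (64.2%).

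Shares went up with depth and were lower again in the deepest cells. Over 5 equal groups of cells by total UMIs the median share was 27.4%, 29.1%, 30.6%, 31.4% and 29.4%, from the shallowest to the deepest. Across cells its Pearson correlation was 0.17 with log10 UMIs and −0.25 with the mitochondrial share, as descriptions over 4638 cells of 1 capture. The Spearman (rank) correlation was 0.13 with log10 UMIs and −0.035 with the mitochondrial share. By rank, the member share thus hardly followed the mitochondrial share. A lower tail of 52 cells had under 10% member UMIs, with a median of 1150 UMIs and 6.4% mitochondrial UMIs. The 160 barcodes removed by the filter had a median share of 5.57% with 12.6% mitochondrial UMIs.

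How the share varied over cell states was asked first by clustering, with all members left out of the genes clustered. Cells fell into 10 clusters, whose median share ran from 22.3% to 31.9%. The highest were cluster 1 (31.9%) and cluster 0 (31.9%). Cluster 1 was led by Gpr83, Lrrc32 and Ctla4, with 10 of 12 measured Treg core markers at least 1.5-fold higher. It also had 6 of 8 thymic exit and 5 of 12 interferon response markers higher. In cluster 0, 9 of 12 interferon response and 6 of 8 thymic exit markers were higher. Cluster 0 also held 905 CPM of B and plasma cell genes, with Igkc and Jchain among its leading genes, and the part of these in its share was not tested. Next came cluster 8 (30.4%), led by E2f1, Cdc6 and Gins2 of the start of DNA replication, and cluster 5 (29.6%), led by Gzmc, Cxcr3 and S100a4. Cluster 5 also held gamma-delta T (171 CPM), NK and innate lymphoid (134) and B and plasma cell genes (340). Their part in its share was not tested. After these came cluster 9 (29.2%), whose immunoglobulin and macrophage genes left it unnamed, and cluster 6 (29.1%), led by Egr3, Nr4a1 and Nr4a3. Treg core markers were not particular to cluster 1, since 8 of 12 were higher in cluster 6 and 7 of 12 in cluster 5. Cluster 2 (28.2%), led by Colq, Arhgap20 and Sox4, cluster 3 (27.1%), led by Lad1, Gadd45b, Xcl1 and Tnfrsf9, and cluster 4 (25.7%), led by Ccr9, followed. Cluster 7, led by the mitotic genes Hmmr, Nusap1 and Aspm with 12 of 12 proliferation markers higher, was lowest at 22.3%. The quartiles of neighbouring clusters overlapped throughout, and those of cluster 7 (19.9% to 25.4%) lay below those of clusters 0, 1 and 8.

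**Figure D1:**
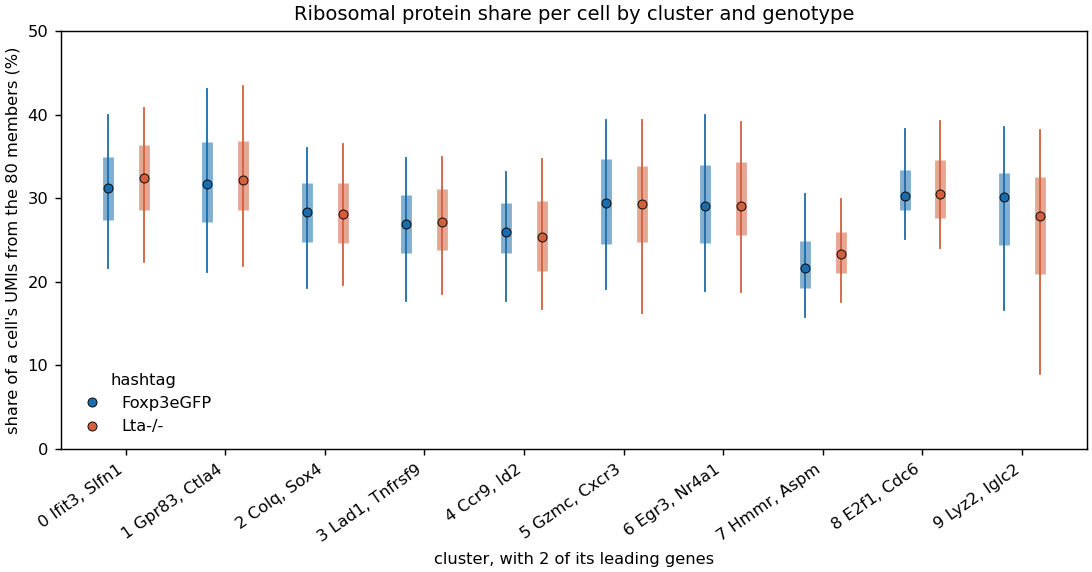
Share of each cell's UMIs from the 80 members (vertical axis, %) in 10 clusters, separately for Foxp3eGFP and Lta-/- cells; points are medians, thick bars quartiles and thin lines the 5th to 95th percentiles over cells. Cluster 7 is lowest in both mice, at medians of 21.7% and 23.4%.

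A share is relative, so a lower amount of member transcripts and a higher amount of others cannot be told apart from it. In cluster 7 a cell had a median of 3289 member UMIs and 11566 other UMIs, against 1600.5 and 3314 in cluster 1, so both kinds were more numerous per cell in the mitotic cells. The median total there was 14620 UMIs. In cluster 8, at 9803.5 UMIs per cell, the share was 30.4%, so the 2 clusters with most UMIs stood at different shares. Of the 80 members, 53 were at least 20% lower in cluster 7 than in all other cells, where 27.8% of the 4254 genes with at least 1000 UMIs were. The threshold throughout is a fold of the same size both ways, 25% higher or 20% lower. A single member, Rps27l, was that much higher in cluster 7 (323 CPM against 239), where 20.9% of all genes were.

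State marker lists were then compared on cells thinned to 3000 UMIs each. List and member UMIs share that total, so a cell with fewer member UMIs has more room for list UMIs. The part of this in the list differences and in the steps along each list was not tested. Of the 9 lists, the largest difference was for immature CD4 thymocyte genes (Ccr9, Cd24a, Itm2a, Satb1, Tox, Sox4, Cd69, Ldhb), where the 941 cells with most of these UMIs (10 or more) had a share of 26.4% and the 1166 with 2 or fewer 32.5%, a log2 ratio of −0.30. Of the members, 35 were at least 20% lower (11.6% of all genes were) and 2 at least 25% higher (35% of all genes), with a median log2 ratio of −0.30 against 0.21 over all genes. Rps27 was at 2987 and 4368 CPM (log2 −0.55) and Rpl18 at 2738 and 3957 (−0.53), whereas the 2 higher members were the paralogs Rpl7l1 (0.49) and Rps27l (0.40). The proliferation list came next, with 26.4% in cells with 3 or more of its UMIs and 31.2% in cells with 0 (log2 −0.24), where 20 members were at least 20% lower (17.2% of all genes) and 1 higher (24.3%). Rps27 (−0.59) and Rps15a (−0.55) were the lowest there and Rps27l (0.53) the one higher. Median UMIs before thinning were 9885 in positive and 5392 in negative cells. For genes of agonist-signalled precursors (such as Tnfrsf9, Xcl1, Lad1 and the pro-apoptotic Bcl2l11), which mark thymocytes that met strong self antigen, the shares were 27.0% and 31.1% (log2 −0.20), with 10 members lower (15.5%) and 2 higher (28.1%). Rps24 was at 7141 and 9174 CPM (log2 −0.36) and Rps27 at 3024 and 3925 (−0.38), while Rpl7l1 was at 117 and 73.7 (0.67) and Rps27l at 293 and 187 (0.65). Immediate early genes (Egr1, Nr4a1, Fos) gave 27.8% and 30.2% (log2 −0.12), with 0 members past the threshold (11.1% of all genes higher, 7.22% lower). Effector genes gave 28.1% and 30.2% (log2 −0.10), with 4 members lower (14.5%), led by Rps26 (−0.40), and 0 higher (12.7%).

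In 2 lists the cells with most marker UMIs had the higher share. The exit list (S1pr1, the receptor by which mature thymocytes leave, with Klf2 and Gimap genes) gave 29.9% against 27.2% (log2 0.14), with 16 members at least 25% higher (22.5% of all genes) and 9 at least 20% lower (37.7%). Rps15a was at 9206 CPM in cells with most exit UMIs and 5855 in cells with fewest (log2 0.65), Rps27 at 4118 and 2733 (0.59) and Rpl13a at 3289 and 2312 (0.51). In the other direction stood Rps27l at 156 and 333 (−1.09), Rpl7l1 (−0.84), Rps2 at 2164 and 3407 (−0.66) and Rpl14 (−0.43). The interferon response list gave 29.8% against 28.6% (log2 0.06), with Rps15a the 1 member higher (0.44, where 13.9% of all genes were) and 3 lower (where 26% were), among them Rps27l (−0.55) and Rpl7l1 (−0.40). The Treg core list gave 29.0% against 29.4% (log2 −0.02), with 0 members past the threshold either way (14.3% of all genes higher, 14% lower). Igfbp4, Dapl1, Il7r and Lef1 gave 29.3% against 30.8% (log2 −0.07), with 2 members lower (10.8%) and 0 higher (14.3%). Each list had its difference in the same direction in both mice, with −0.32 and −0.29 for the immature list in Foxp3eGFP and Lta-/- cells, −0.22 and −0.19 for the precursor list, and 0.10 and 0.17 for the exit list. For the Treg core list the interval in Foxp3eGFP cells included 0.

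Shares were graded along several lists. With 0, 1 to 2, 3 to 5, 6 to 10 and 11 or more precursor UMIs, the pooled share was 31.1%, 29.9%, 27.9%, 26.7% and 24.4%. With the same steps of immature CD4 UMIs it was 32.7%, 32.4%, 31.0%, 28.6% and 26.2%. The proliferation list was not graded in that way: the share was 31.2%, 29.4%, 28.6% and 28.5% up to 10 UMIs and 23.6% in the 309 cells with 11 or more. Treg core UMIs gave 29.6%, 29.6%, 30.6%, 30.5% and 29.2%, without a trend.

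**Figure D2:**
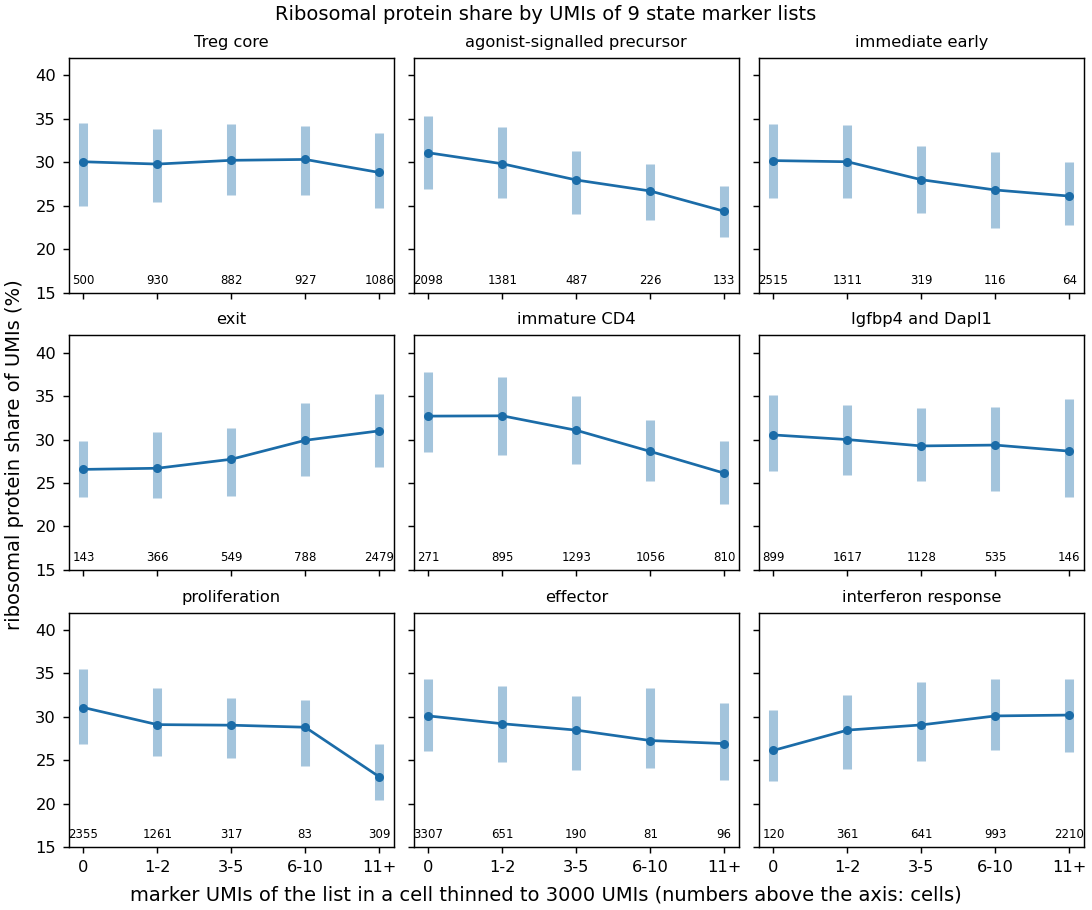
Ribosomal protein share (vertical axis, % of UMIs; points are medians over cells, bars quartiles, the axis starts at 15%) against the UMIs of each of 9 marker lists in cells thinned to 3000 UMIs, with the number of cells under each point. The precursor medians go down at each step, the immature CD4 medians are level at 32.7% over the first 2 steps and then go down to 26.1%, and the exit list goes up from a median of 26.6% to 31.0%.

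Foxp3 and Il2ra UMIs split the cells into 4 classes. Both transcripts were found in 426 cells, with a share of 31.8%, Foxp3 only in 524 (30.5%), Il2ra only in 615 (30.3%) and neither in 3073 (29.1%). A cell without a UMI may still hold the transcript, since all were sorted on the proteins. Cells with both exceeded cells with neither by a log2 ratio of 0.13 (0.128 to 0.134), with 68 members higher and 12 lower. The median over members was 0.12 and that over all genes was −0.08. In the Foxp3eGFP mouse the ratio was 0.14 and in the Lta-/- mouse 0.13. It was 0.08 after thinning, 0.07 without proliferating cells and 0.02 with clusters weighted equally. B and plasma cell genes made up 562 CPM in cells with neither transcript and 89.5 to 131 CPM in the other classes, and with these genes left out the ratio was also 0.13.

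In cells with both transcripts 2 members were at least 25% higher (11% of all genes) and 0 at least 20% lower (19.8%). They were Rps15a, a small subunit protein, at 8909 CPM against 6883 (log2 0.37, 0.35 to 0.39), and Rpl37, of the large subunit, at 4510 against 3574 (log2 0.34, 0.31 to 0.36). Rpl24 (0.28) and Rpl36 (0.27) were among the next. At the other end stood Rps27l (−0.28), Rpl31 (−0.13), Rpsa (−0.09), Rpl14 (−0.09) and Rpl22l1 (−0.07). Against cells with neither, Foxp3 only cells had a ratio of 0.07, with Rps15a higher (9434 against 6883, log2 0.45; 11.8% of all genes were that much higher) and Rpl7l1 lower (−0.37; 20.9%). Il2ra only cells had a ratio of 0.06 with 0 members past the threshold (8.23% of all genes higher, 9.83% lower).

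Cells with Il2ra only and cells with Foxp3 only, loose counterparts of the CD25+ and Foxp3+ precursors of Treg cells, had shares of 30.3% and 30.5%, a log2 ratio of −0.010 (−0.014 to −0.007). Neither its sign nor its size was stable, since it was −0.046 with depth groups weighted equally (median UMIs were 5915 and 4743) and 0.041 with clusters weighted equally. Genes of other cells differed between these classes as well, with CD8 and double-positive thymocyte genes at 162 and 33.0 CPM and gamma-delta T cell genes at 75.7 and 18.4. NK and innate lymphoid genes were at 84.0 and 16.7, myeloid genes at 139 and 226, and there were 0 erythroid UMIs in either. The thymic epithelial list was at 95.5 and 197. It includes Cd74 and was highest in cluster 9 (1495 CPM), where immunoglobulin and macrophage genes led, so it is not specific to epithelium. The part of all these genes in the values below was not tested. The mice differed in sign, with 0.015 in Foxp3eGFP and −0.048 in Lta-/- cells, a difference that was not tested. Single members differed more than their sum. Rpl7l1 was at 95.5 CPM in Il2ra only and 63.7 in Foxp3 only cells (log2 0.58, 0.33 to 0.84). Rps27l was at 304 and 211 (log2 0.53, 0.39 to 0.67), Rps2 at 3517 and 2761 (log2 0.35, 0.31 to 0.39) and Rpl14 at 1872 and 1564 (log2 0.26). Rps15a had the reverse order, at 7399 and 9434 (log2 −0.35, −0.37 to −0.33), followed by Rps27 (−0.17), Rps24 (−0.12), Rpl37 (−0.12) and Rpl19 (−0.12). By the same threshold 3 members were higher (22.7% of all genes) and 1 lower (17.4%). Each of Rpl7l1, Rps27l, Rps2, Rpl14 and Rps15a kept their direction in each mouse, and the interval of Rps27l in Lta-/- cells (0.21, −0.002 to 0.43) included 0.

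Members differed in how closely they followed the rest over the clusters. Across 20 groups of cluster and genotype, the median correlation of a member's CPM with the sum of the other members was 0.83, and 17 members exceeded 0.9, led by Rpl27a and Rps28 (both 0.98). Among the lowest were Rps27l (−0.40), Rpl7l1 (−0.38), Rpl31 (−0.02), Rpl41 (0.02), Rps2 (0.03) and Rpl14 (0.05). These values describe groups that share a library, and no p is attached.

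Rps27l, a paralog of Rps27 known as a target of p53, went from 146 CPM in cluster 0 to 453 in cluster 3 and 486 in cluster 9. Its parent Rps27 ran the other way, from 4448 in cluster 5 to 2532 in cluster 3 and 2238 in cluster 7. The paralog therefore made up 3.34% (3.13 to 3.57) of the pair in cluster 0, 15.2% (14.4 to 15.9) in cluster 3 and 12.6% (12.0 to 13.2) in cluster 7. By genotype it was 7.18% in Foxp3eGFP and 6.49% in Lta-/- cells. Rpl7l1, a relative of Rpl7 found in precursors of the large subunit, went from 54.2 CPM in cluster 5 to 165 in cluster 3, or from 1.96% to 5.94% of its pair with Rpl7. Rpl22l1 and Rpl22 moved much less, with the paralog at 31.0% of the pair in all cells and between 28.3% (cluster 1) and 35.7% (cluster 4).

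Rps15a and Rps27 had the widest range among members outside the paralogs. Rps15a was at 9828 CPM in cluster 1 and 4630 in cluster 7, 2.12-fold apart, and Rps27 was 1.99-fold apart, while the median member was 1.48-fold apart. Rps2 was highest in cluster 3 (4448) and lowest in cluster 4 (2456). Rpl31 was highest in cluster 3 (1227) and lowest in cluster 5 (752).

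**Figure D3:**
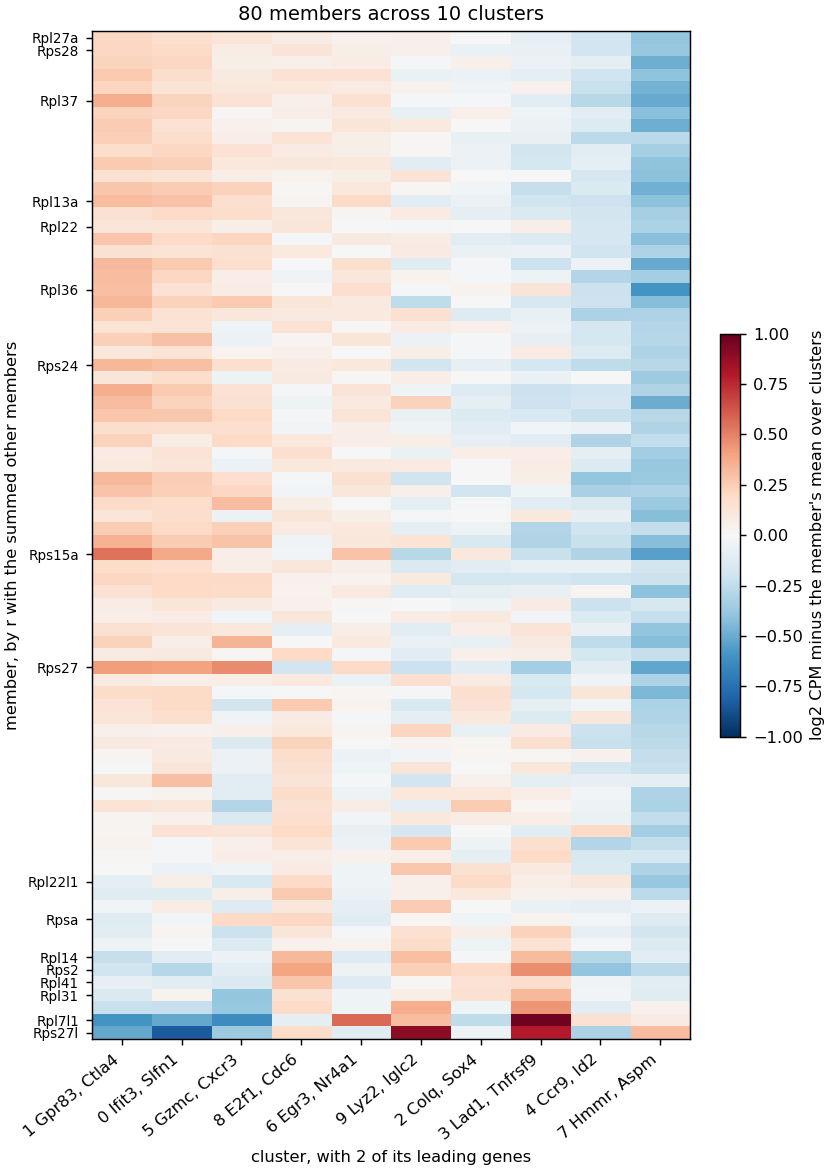
Level of each member in 10 clusters as log2 CPM minus the member's mean over clusters (colour), with every member drawn, a few named, and rows ordered from the highest to the lowest correlation with the summed other members. Most rows are high in clusters 1 and 0 and low in cluster 7, whereas Rpl7l1, Rps27l and Rps2 near the foot are high in cluster 3.

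Other genes of translation were then set beside the members. Core ribosomal genes that the naming rule misses, Rack1 and Fau, were among those most like the members. Among genes with at least 1000 UMIs, the 10 most like the members' sum over the 20 groups included Rack1 (r = 0.86), a small subunit scaffold, Igbp1, Trappc6a, Rps27rt, Eif3f (0.75), Sp140, Fau (0.75), Cd96 and Rnasek. Fau encodes a ribosomal protein fused to a ubiquitin-like protein. Rps27rt is a copy of Rps27, so reads of the pair cannot be told apart with certainty.

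Ribosome assembly genes, which make and fold ribosomal RNA into subunits, had a pattern of their own. In cells positive for the precursor list their summed level was 1.06 higher on the log2 scale than in negative cells, with 23 of 24 genes at least 25% higher (28.1% of all genes), while the members' log2 ratio was −0.20. Examples were Ncl, the nucleolar protein nucleolin, at 1561 CPM against 645 (log2 1.28), Gnl3 at 165 against 60.5 (1.44) and Nolc1 at 171 against 65.3 (1.39). Ubtf, a factor of RNA polymerase I, was the exception, at 157 against 138 (0.19). Along the exit list the order was the reverse, with the assembly genes at a log2 ratio of −1.45, 21 of 22 measured genes lower (37.7%), and the members at 0.14.

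Between Il2ra only and Foxp3 only cells the member sum differed by −0.010 (from −0.048 to 0.041 over the alternatives run). The assembly genes, for which these alternatives were not run, differed by 1.08 (1.03 to 1.12 by counting error only). Of the assembly genes, 23 of 24 were higher (22.7% of all genes). Myc, which drives transcription of ribosome genes, was at 90.4 and 22.1 CPM there (log2 2.03, from 394 and 65 UMIs). Initiation factors, which load ribosomes onto mRNA, lay between, with 19 of 23 higher and a log2 ratio of 0.49, of which Eif4a1, the mRNA helicase, had 673 and 393 CPM. Mitochondrial ribosomal proteins had 0.31 with 39 of 78 higher. Elongation factors and other TOP genes stayed near the members, at 0.03 with 4 of 23 higher, and Eef1a1 was at 6017 and 6195 CPM. Of 15 genes that control ribosomal protein synthesis 5 were higher and 3 lower, where 22.7% and 17.4% of all genes were. Larp1, which binds TOP tracts, was at 109 and 68.8 CPM (log2 0.66).

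**Figure D4:**
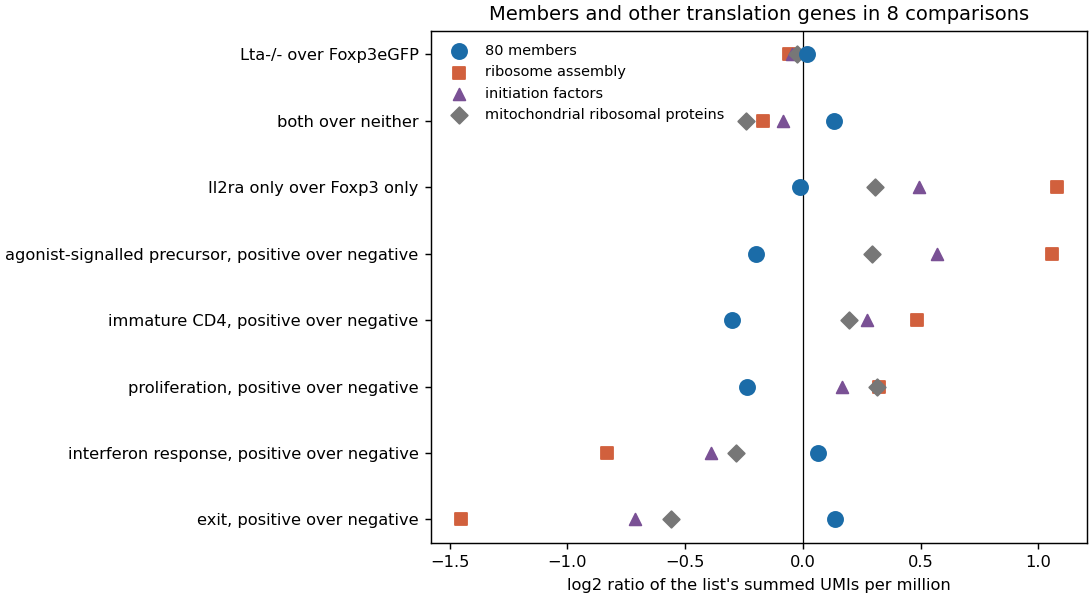
Log2 ratio of summed CPM (horizontal axis) of the 80 members, ribosome assembly genes, initiation factors and mitochondrial ribosomal proteins in 8 comparisons (rows). In the Il2ra only over Foxp3 only row the members lie at −0.010 and the assembly genes at 1.08, and in the genotype row all 4 lie within 0.06 of 0.

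Between genotypes the member share was 29.8% in Lta-/- and 29.4% in Foxp3eGFP cells, a log2 ratio of 0.018 (0.016 to 0.020). The median share per cell was 29.8% with quartiles of 25.5% and 34.1% in Lta-/- cells and 29.4% with 24.8% and 33.8% in Foxp3eGFP cells, so the distributions overlapped almost wholly. Of the members, 64 were higher and 16 lower in Lta-/- cells, at a median log2 ratio of 0.02 against −0.01 over all genes. Within clusters the ratio ran from −0.07 in cluster 5 to 0.05 in cluster 7, and with clusters weighted equally it was −0.0015, with the sign reversed. Cluster 7 held 7.06% of Foxp3eGFP and 4.55% of Lta-/- cells, cluster 4 held 4.80% and 9.63%, and cluster 5 held 4.71% and 8.65%. Transcripts of 9 B and plasma cell genes made up 749 CPM in Foxp3eGFP and 101 CPM in Lta-/- cells, and without them the ratio was 0.017. Genes of CD8 and double-positive thymocytes stood at 110 and 70.4 CPM, and those of gamma-delta T cells at 60.6 and 34.2. Those of myeloid cells were at 214 and 210 and those of NK cells at 47.6 and 53.7. The thymic epithelial list, which includes Cd74, was at 123 and 136, with 1 erythroid UMI in each mouse. Apart from the B cell genes, the part of all these genes in the ratio was not tested. The other translation lists were as close, with assembly genes at −0.06, initiation factors at −0.05, mitochondrial ribosomal proteins at −0.02 and elongation factors and other TOP genes at 0.03, and 0 of the 24 assembly genes passed the threshold.

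A single member, Rps2, was past the threshold between the mice. It encodes a small subunit protein at the channel where mRNA enters the ribosome. Rps2 was at 2418 CPM in Lta-/- and 3797 CPM in Foxp3eGFP cells (33991 and 56994 UMIs), 1.57-fold lower in Lta-/-, with a log2 ratio of −0.65 (−0.67 to −0.63). It was thus the 1 of 80 members at least 20% lower, where 3.41% of the 4254 genes were, and 0 were at least 25% higher, where 0.823% were. It was also the only one past 1.5-fold, where 1.2% of genes were lower and 0.141% higher. Past 1.1-fold, Rpl7l1 joined it (13.7% of all genes lower), and 0 members were higher (8.56%). Next came the paralogs Rpl7l1 (−0.17, −0.29 to −0.06) and Rps27l (−0.06), Rpl23a was at −0.03, and at the upper end stood Rps27 (0.09), Rps13 (0.08), Rpl22 (0.07), Rps21 (0.06) and Rpl39 (0.06). Among the 92 other genes with at least 20000 UMIs, 0 were lower in Lta-/- cells than Rps2.

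The Rps2 difference was present in all 10 clusters. In Foxp3eGFP cells it ran from 3047 CPM (cluster 7) to 5331 (cluster 3), and in Lta-/- cells from 2082 (cluster 4) to 3334 (cluster 3), with log2 ratios between −0.77 (cluster 6) and −0.48 (cluster 7). Clusters high in Rps2 were the same in both mice, with 3, 8, 2 and 9 as the upper 4 in each. By class the ratio was −0.62 in cells with neither transcript, −0.55 with Foxp3 only, −0.75 with Il2ra only and −0.75 with both. Per 10000 UMIs a cell had a median of 20.6 Rps2 UMIs in Lta-/- (quartiles 12.9 and 29.0) and 30.8 in Foxp3eGFP (20.6 and 43.5). Rps2 was found in 98.0% and 99.5% of these cells, near the ceiling in both mice. The 185 cells with both tags stood between, at 3177 CPM, where any mixture of the 2 mice would lie. Without Rps2 the other 79 members gave a genotype ratio of 0.025.

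**Figure D5:**
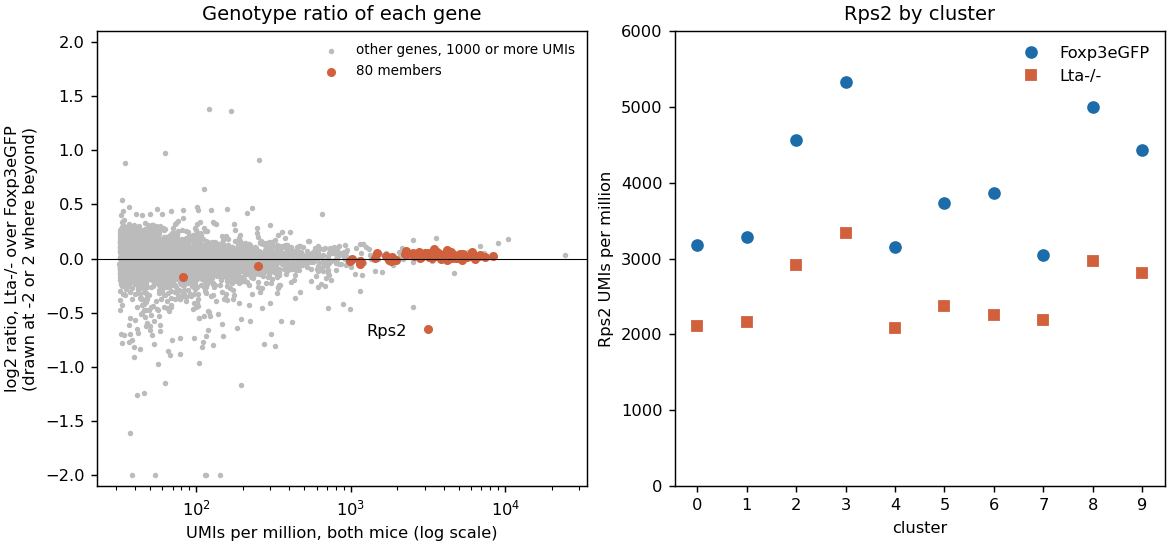
Left, log2 ratio of Lta-/- over Foxp3eGFP cells (vertical axis, values beyond −2 or 2 drawn there) against CPM (log axis) for genes with at least 1000 UMIs, members in orange. Right, Rps2 CPM in 10 clusters, lower in Lta-/- than in Foxp3eGFP cells in each.

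Rps2 lies on chromosome 17 at 24718121 to 24721927 (GRCm38), 10.5 Mb from Lta at 35203165 to 35205578 on the same chromosome. The other 6 members on chromosome 17 did not share its ratio. Rps10, Rpl10a, Rps28 and Rps18, which lie between Rps2 and Lta, had 0.03, 0.03, 0.02 and 0.04, and beyond Lta Rpl7l1 had −0.17 and Rpl36 0.05. Rps2 also has near-identical processed copies in the mouse genome, so its reads may be shared with them. The part of such reads in the ratio was not tested, and with 1 mouse per genotype a difference between these 2 animals and the loss of Lta cannot be told apart.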

How the data were processed

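UMI counts per gene and barcode were used as the authors deposited them, whole numbers before any normalization, in 1 matrix that holds the mRNA and the hashtag counts of 1 capture. The submitters' processing notes list Cell Ranger 6.0.1 and the builds mm10 and GRCm38; the annotation release and the cell calling: not given in the sources used here. There were 0 unused columns of per-sample values.

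A barcode was kept (4638 of 4798) when it had 500 or more genes and no more than 10% of its UMIs were mitochondrial. A genotype was called from at least 10 counts of a hashtag making up at least 80% of a cell's hashtag counts. The deposited feature names, which number the antibodies differently from the labels, gave the direction. Cells that did not meet the hashtag call, named cells with both tags above, entered no genotype comparison, and doublets within a mouse were not removed. UMIs were summed over cells, scaled to 1000000 (CPM) and compared as log2 ratios with exact conditional binomial intervals. The intervals were checked on simulated Poisson sums without variation between cells, so that check does not cover such variation. Shares have Clopper-Pearson intervals. A median over cells is never a replicate value. For the state lists, cells were thinned to 3000 UMIs, which kept the 4325 cells that had as many. Cells with at least 3 list UMIs were set against cells with 0, or, where over 50% of cells had 3, cells at or above the 80th percentile of list UMIs against cells at or below the 20th, which ties made larger than 20% of cells. Clustering used 2000 variable genes without the members, 30 principal components, 15 neighbours and Leiden resolution 0.6 (10 clusters, 14 at 1.0). A feature counted as past the threshold when 25% higher or 20% lower, over genes with at least 1000 UMIs, and a gene of a list counted as measured with at least 50 UMIs. Members named were the 10 with most UMIs, the 5 highest and 5 lowest ratios of a comparison, those past the threshold in any, and paralogs with their parents, and other genes named were the 10 most like the members over clusters and members of the translation lists. A few genes that this rule would name are not reported here. The members, lists and comparisons were chosen with earlier results of these data known. Software was Python 3.11.15 with numpy 2.4.6, scipy 1.17.1, pandas 2.3.3, matplotlib 3.10.9, scanpy 1.11.5, scikit-learn 1.9.0, igraph 0.11.9 and leidenalg 0.10.2.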

Additional observations from a re-analysis of the deposited data

Results flagged for a closer look

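The member share in Il2ra only over Foxp3 only cells pointed in opposite directions in the 2 mice. The log2 ratio was 0.0153 (0.0098 to 0.0209) in Foxp3eGFP cells, where the shares were 30.5% and 30.2%. It was −0.0482 (−0.0541 to −0.0422) in Lta-/- cells, where they were 30.0% and 31.0%. The difference between the mice was not tested, since each is 1 animal.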

How the results depend on the processing

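No paired analysis was possible because there was 1 mouse per genotype and 1 capture. A value counted as moved when it left its counting interval, which is narrow at this depth, so 44 of the 69 alternative values moved and 3 reversed, while 22 stayed within it. For Lta-/- over Foxp3eGFP (0.018) the value was 0.0155 as a mean over cells, 0.0037 without proliferating cells, 0.0152 with equal weight per depth group and, reversed, −0.0015 with equal weight per cluster. The count of members past the threshold, 1, was 2 at 1.1-fold. For both over neither (0.13) it was 0.126 as a mean over cells, 0.126 without the 5 most abundant members, 0.0786 after thinning, 0.0674 without proliferating cells, 0.143 in Foxp3eGFP cells, 0.111 with equal weight per depth group and 0.0224 per cluster. For Il2ra only over Foxp3 only (−0.010) it was −0.0046 as a mean over cells, −0.00026 without the 5 most abundant members, −0.000296 after thinning, −0.0034 without proliferating cells, −0.0167 at 2 UMIs per class, −0.0460 with equal weight per depth group and −0.0482 in Lta-/- cells. It reversed to 0.0153 in Foxp3eGFP cells and 0.0411 with equal weight per cluster. Proliferating cells were those with 3 or more unthinned list UMIs, and the cluster weights, and the depth weights of the class comparisons, were chosen after seeing the data.

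Each list kept its direction. With 2 and with 5 UMIs as the threshold the precursor list gave −0.157 and −0.249, immediate early −0.0801 and −0.172, Igfbp4 and Dapl1 −0.0582 and −0.0848, proliferation −0.196 and −0.315, and effector −0.0904 and −0.110. In Foxp3eGFP and Lta-/- cells alone the values were −0.0062 and −0.0346 for Treg core, −0.216 and −0.189 for the precursor list, −0.149 and −0.0982 for immediate early, and 0.104 and 0.173 for exit. They were −0.316 and −0.291 for immature CD4, −0.0688 and −0.0751 for Igfbp4 and Dapl1, −0.258 and −0.215 for proliferation, −0.0732 and −0.142 for effector, and 0.0679 and 0.0657 for interferon response. The cause of each change was not tested.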

Other observations

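Genes beside Rps2 and Lta were looked at after the Rps2 value was seen. Of the 7 other genes with at least 1000 UMIs that start within 500 kb of Rps2, 1 was past the threshold of 25% higher or 20% lower: Gfer, an enzyme of disulfide transfer in mitochondria, which starts 24.9 kb away and had 26.8 CPM in Lta-/- and 45.8 CPM in Foxp3eGFP cells (log2 −0.77, from 376 and 687 UMIs). The adjacent Ndufb10, a subunit of respiratory complex I, had −0.17, and the others lay between −0.13 and 0.16.

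Of the 67 genes of that depth within 5 Mb of Lta, 7 (10.4%) were past it, against 4.69% of 64 genes at 5 to 15 Mb, 2.90% of 69 farther on chromosome 17 and 3.89% of 3988 on other chromosomes. Besides Rps2 and Gfer, 5 genes of chromosome 17 were past 1.5-fold: Glo1 (3440 UMIs in Lta-/- and 1429 in Foxp3eGFP cells, log2 1.36), its neighbour Dnah8 (log2 1.38), the class I genes H2-Q7 (0.91) and H2-M3 (−0.62), whose close relatives make the assignment of reads uncertain, and Ndc80 (−0.70). What these values share with that of Rps2 was not tested.

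Compared with 53 other genes of at least 30000 UMIs, the 80 members varied less around their own mean ratio. The SD of log2 ratios between genotypes was 0.083 over members, most of it from Rps2, and 0.130 over the others, and between cells with both transcripts and with neither it was 0.116 and 0.391. Without Rps2 the members' SD between genotypes was 0.035.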
